A study of Rattus norvegicus with 6 samples.

Results

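The genes described here are 10 that carry iron through the liver: Tf, Tfrc and Slc11a2 for uptake, Fth1, Ftl1 and Ncoa4 for storage and its release, Slc40a1 for export, Slc25a37 for delivery to mitochondria, and Aco1 and Ireb2 for control. They were chosen by name, 10 of the 15284 genes that the arrays' probes could be matched to, and all array probes whose RefSeq accession maps to one of these symbols were taken, which gave 26 of 61657 non-control probes. All 26 were well above background on all 6 arrays, so all were among the 38168 probes tested. The arrays were one-colour Agilent rat expression arrays hybridised with Cy3-labelled cRNA from whole liver. In the NTA group, 3 male Sprague-Dawley rats received 1000 mg/kg/day of nitrilotriacetic acid trisodium monohydrate, a small chelator that binds metal ions such as iron and zinc. In the vehicle group, 3 male Sprague-Dawley rats received the vehicle alone, which one label gives as purified water and another as corn oil. The rats were Crl:CD(SD) animals bought at 5 weeks of age, and the labels give the sampling time as 28 days in one place and as 9 weeks of dosing in another. Age at sampling follows from neither with certainty.

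Iron travels in blood bound to transferrin (Tf), which hepatocytes make and secrete. Cells take it up through the transferrin receptor (Tfrc), and the proton-coupled carrier DMT1 (Slc11a2) moves iron out of the endosome. Spare iron is held in shells of ferritin heavy (Fth1) and light (Ftl1) chains, which the receptor NCOA4 delivers to lysosomes when iron is needed, and ferroportin (Slc40a1) exports it. The iron regulatory proteins IRP1 (Aco1) and IRP2 (Ireb2) bind hairpins in several of these mRNAs when iron is scarce. This stabilises the Tfrc mRNA and blocks translation of the ferritin mRNAs, so part of the control does not show in mRNA levels.

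Values are on a log2 scale, with 0 at the 75th percentile of that array, and each probe is compared only with itself across arrays, since levels of different probes cannot be set against each other. The share of probes well above background was 62.4% to 64.5% per array, and the 75th percentile of the signal lay between 464 and 558. All 12 hepatocyte markers were well above background on every array. All 3 NTA arrays lay on a single slide without any vehicle array, so the effects of slide and of treatment cannot be told apart. Vehicle replicate 3 had a slide and a scan day to itself, and its median local background was 40 against 54 to 61 on the others. Because whole liver was measured, fewer cells of a type and less RNA per cell cannot be told apart.

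None of the 10 iron genes passed the test. Of the 26 probes 0 had an adjusted p under 0.05 (limma, Benjamini-Hochberg over all probes tested), where 13 of 38168 probes did, or 0.0341%, all 13 higher with NTA. The total fell to 6 without NTA replicate 1 and to 7 without NTA replicate 2, and the count for the iron genes was 0 in these and all other fits. At an unadjusted p under 0.05 there was 1 iron gene probe of 26, against 7.38% of all probes. The 1 probe was Slc25a37 A_44_P557731 in the main fit. It was Ncoa4 A_44_P1008050 with normexp background correction and Tfrc A_44_P313767 without vehicle replicate 1. The count was 2 without vehicle replicate 3, when Slc25a37 A_64_P063518 joined, and 0 with a flagged spot of the other Slc25a37 probe kept. The 3 NTA and 3 vehicle values did not overlap for 1 of the 25 iron gene probes measured on all arrays, against 13.4% of all such probes. The median log2 difference was −0.05 over the 26 probes and −0.02 over all probes, with 9 iron gene probes above 0 and 17 below. The absolute log2 difference had a median of 0.07 among the iron gene probes and 0.13 among all probes, and the SD within groups had medians of 0.14 and 0.19. Only the probes of Slc25a37 and 1 probe of Tfrc differed by more than 0.2 on the log2 scale.

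**Figure D1:**
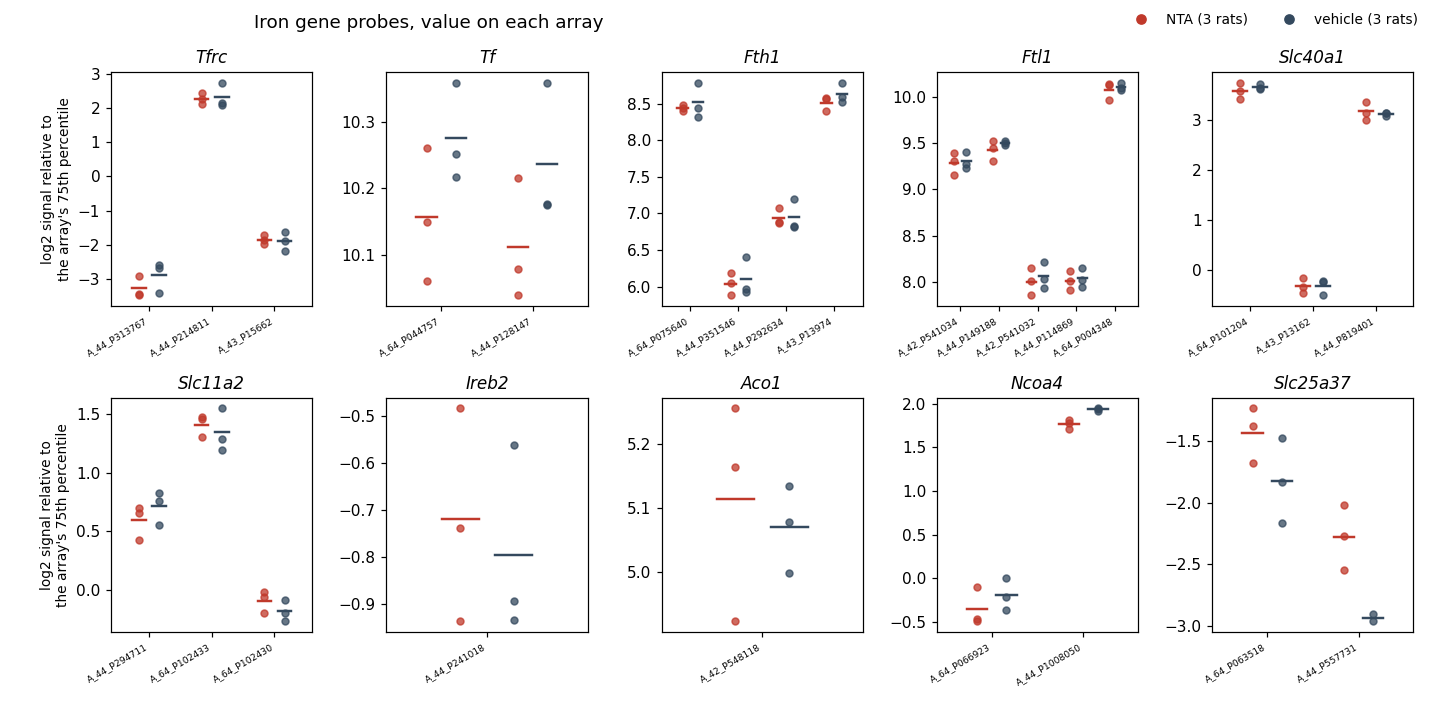
Log2 signal with 0 at the 75th percentile of the array (y axis, a separate scale per gene) for each of the 26 iron gene probes (x axis), with NTA rats in red to the left and vehicle rats in blue to the right. Points are rats and lines are group means. The groups overlap for every probe except Ncoa4 A_44_P1008050 and Slc25a37 A_44_P557731, and that Slc25a37 probe has only 2 vehicle values.

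Among the uptake genes, Tf, the plasma iron carrier, had 2 probes that read alike. Its probe A_64_P044757 was at 10.15, 10.26 and 10.06 in NTA rats 1 to 3 and at 10.22, 10.36 and 10.25 in vehicle rats 1 to 3. NTA rat 3 was the lowest and vehicle rat 2 the highest, on this probe and on the second one, A_44_P128147, and the groups overlapped. The arrays of these 2 rats also had the highest and the lowest 75th percentile, 558 and 464, by which the signal is divided. The processed signal of A_64_P044757 was 595275 to 633461 on NTA arrays and 608585 to 643047 on vehicle arrays. The log2 differences were −0.12 (95% interval −0.37 to 0.14) and −0.13 (−0.39 to 0.14), with limma Benjamini-Hochberg adjusted p of 0.843 and 0.838. With quantile normalization the differences were −0.04 and −0.05. Beside this, the summed signal of 12 hepatocyte markers was 4362 to 4542 times the 75th percentile in NTA rats. It was 4826 to 5044 times in vehicle rats, and 9 of 12 markers were below 0 in log2 difference. Ttr and Alb made up 41.4% to 47.3% of this sum. The other 10 genes summed to 2396 to 2541 in NTA rats and to 2657 to 2829 in vehicle rats. These sums depend on the array's 75th percentile as the Tf values do. The part of hepatocyte RNA in the Tf values was not tested.

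Tfrc, whose mRNA the iron regulatory proteins stabilise, had 3 probes, and none separated the groups. The probe A_44_P214811 was at 2.25, 2.11 and 2.43 in the NTA rats and at 2.16, 2.75 and 2.10 in the vehicle rats. Vehicle rat 2 was the highest rat on all 3 Tfrc probes. The log2 difference of this probe was −0.07 (95% interval −0.55 to 0.41; limma, Benjamini-Hochberg adjusted p = 0.959). Leaving out vehicle replicate 3 gave −0.19 and leaving out vehicle replicate 2 gave 0.13, so omitting 1 rat turned its sign. The probe A_43_P15662 gave 0.04 (95% interval −0.37 to 0.45). The last probe, A_44_P313767, was at −3.48, −3.43 and −2.91 in the NTA rats and at −3.41, −2.59 and −2.67 in the vehicle rats. Its difference of −0.38 had a 95% interval of −1.02 to 0.25 (SE 0.26; limma, Benjamini-Hochberg adjusted p = 0.796). It was −0.64 without vehicle replicate 1, where the unadjusted p was under 0.05 and the limma Benjamini-Hochberg adjusted p was 0.550, −0.23 without vehicle replicate 2, and −0.23 with normexp background correction. The intervals of the 3 probes together span 0.494-fold to 1.36-fold.

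Slc11a2, the proton-coupled iron carrier of endosomes and gut, had 3 probes with no common direction. A_44_P294711 was at 0.70, 0.66 and 0.42 in the NTA rats and at 0.76, 0.82 and 0.56 in the vehicle rats, a log2 difference of −0.12 (95% interval −0.43 to 0.19). The other probes gave 0.07 and 0.09, and all 3 overlapped between groups (limma, Benjamini-Hochberg adjusted p between 0.866 and 0.934). The gene makes mRNAs with and without an iron-responsive element at the 3′ end, and all 3 probes carry 1 accession, so which form each reads was not resolved here.

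The ferritin chains were the best covered, with 4 probes for Fth1 and 5 for Ftl1, and none of the 9 had a log2 difference over 0.12 in size. Fth1, the chain that oxidises iron, was at 8.58, 8.41 and 8.56 in the NTA rats and at 8.53, 8.59 and 8.78 in the vehicle rats on its probe A_43_P13974. Vehicle rat 3 was the highest on all 4 Fth1 probes, and the groups overlapped on each. The log2 differences of the 4 probes ran from −0.12 to −0.0023, with 95% intervals inside −0.45 and 0.34 (limma, Benjamini-Hochberg adjusted p between 0.857 and 0.997). Vehicle rat 3 is the one scanned on another day, and without it the 4 differences were higher, with 3 of them above 0 at 0.06, 0.09 and 0.12 and A_43_P13974 at −0.04.

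Ftl1, the chain that helps the iron core form, was at 10.14, 10.13 and 9.97 in the NTA rats and at 10.07, 10.16 and 10.10 in the vehicle rats on its probe A_64_P004348. NTA rat 3 was the lowest on all 5 Ftl1 probes and vehicle rat 1 the highest on 4 of them. The 5 log2 differences lay between −0.07 and −0.02, with 95% intervals inside −0.37 and 0.25, which is 0.776-fold to 1.19-fold (limma, Benjamini-Hochberg adjusted p between 0.903 and 0.983). The rat genome holds processed copies of the ferritin genes, and cross-hybridisation of these probes to other ferritin transcripts was not tested.

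Ncoa4, the receptor that takes ferritin to the lysosome, had the probe with the smallest standard error of the set, A_44_P1008050. It was at 1.71, 1.81 and 1.78 in NTA rats 1 to 3 and at 1.91, 1.95 and 1.95 in vehicle rats 1 to 3. All 3 NTA rats lay below all 3 vehicle rats, the single case of this kind among the 25 probes measured on all arrays. The means were 1.77 ± 0.05 and 1.94 ± 0.02 (SD, n = 3 each), a log2 difference of −0.17 (SE 0.09, 95% interval −0.39 to 0.06) or 0.890-fold. It did not pass (limma, Benjamini-Hochberg adjusted p = 0.750), and 15.8% of all probes had a smaller p. The second probe, A_64_P066923, was at −0.49, −0.46 and −0.10 in the NTA rats and at 0.01, −0.21 and −0.36 in the vehicle rats, with overlap and a log2 difference of −0.16 (SE 0.16). Both Ncoa4 probes stayed below 0 in all alternative fits, A_44_P1008050 between −0.32 and −0.14 and A_64_P066923 between −0.29 and −0.06. The values furthest from 0 came with normexp for the first and without NTA replicate 3 for the second. With normexp the first had an unadjusted limma p of 0.0089 (Benjamini-Hochberg adjusted p = 0.431, and 0.431 to 0.902 over the alternatives).

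RefSeq promoter windows of the assembly GRCr8, from 250 bases before to 50 bases after the start, were at hand for 7 of the 10 genes, in 8 windows because Slc11a2 has more than 1 start. Fth1, Ftl1 and Slc25a37 were not searched. The 8 windows were searched for the antioxidant response element TGACNNNGC, the site of NRF2-type factors, on both strands. It was found in 1 of the 8 windows, that of Ncoa4, and in 12.1% of all 33469 windows. The loop of the iron-responsive element, CAGTGN, was searched on the sense strand in the 50 bases after the start. It was found in 0 of the 8 windows and in 7.26% of all windows, and the rest of each mRNA was not searched. The Ncoa4 match is shown because it is the 1 match among these windows, in the gene of the probe whose groups did not overlap over all 6 arrays. It starts 52 bases before the start site on the plus strand, at chr16:7401719-7401767 (GRCr8, plus strand, with 20 bases on either side), and capitals mark the match:
Ncoa4: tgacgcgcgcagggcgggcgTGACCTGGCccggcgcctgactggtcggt
A match is a description of the letters and does not show a site in use.

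**Figure D2:**
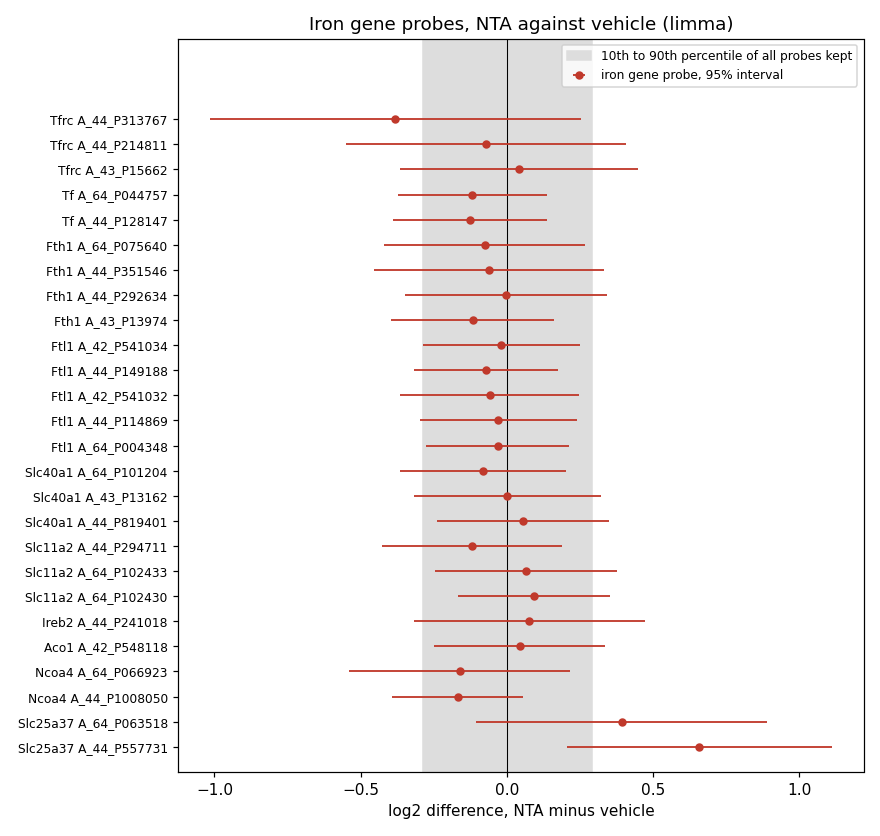
Log2 difference, NTA minus vehicle (x axis), for each iron gene probe (y axis), as points with 95% intervals from limma; the grey band spans the 10th to 90th percentile of all probes tested, −0.29 to 0.29. All points lie inside the band except those of Slc25a37 at 0.39 and 0.66 and Tfrc A_44_P313767 at −0.38.

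Export was measured by 3 probes of Slc40a1, ferroportin, the iron exporter that hepcidin removes from the membrane. The probe A_64_P101204 was at 3.42, 3.57 and 3.74 in the NTA rats and at 3.62, 3.72 and 3.64 in the vehicle rats. NTA rat 3 was the highest on all 3 probes, and the groups overlapped on each. The log2 differences lay between −0.08 and 0.06, with 95% intervals inside −0.37 and 0.35 (limma, Benjamini-Hochberg adjusted p between 0.905 and 0.999). Kupffer cells, the liver macrophages that recycle red cell iron, also make ferroportin. The summed signal of the 12 Kupffer cell and macrophage markers with a probe, of 13 listed, ran from 182 to 362 times the 75th percentile in NTA rats, highest in NTA rat 3, and from 121 to 274 times in vehicle rats. All 12 markers had a log2 difference above 0, with a median of 0.37, and 1 had an unadjusted p under 0.05 (7.38% of all probes did). This rests in part on vehicle rat 3, the rat with the sum of 121 and the one with its own slide and scan day. Without it 10 of 12 were above 0, Adgre1 and C1qb were below 0, the median was 0.07 and 0 had an unadjusted p under 0.05 in limma. Clec4f and C1qb made up 66.1% to 71.6% of the sums of the 12 markers. The part of Kupffer cells and macrophages in the Slc40a1 values was not tested.

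The regulators were read by a single probe each. Aco1, a cytosolic aconitase that becomes the RNA-binding IRP1 when it loses its iron-sulfur cluster, was at 5.16, 5.25 and 4.92 in the NTA rats and at 5.08, 5.00 and 5.13 in the vehicle rats. The log2 difference was 0.04 (95% interval −0.25 to 0.34; limma, Benjamini-Hochberg adjusted p = 0.959). Ireb2, IRP2, which is degraded when iron is plentiful, was at −0.48, −0.94 and −0.74 in the NTA rats and at −0.93, −0.56 and −0.89 in the vehicle rats. NTA rat 1 and vehicle rat 2 stood above the other 4 rats, and the log2 difference was 0.08 (95% interval −0.32 to 0.47; limma, Benjamini-Hochberg adjusted p = 0.940). Both proteins are controlled after translation, which the arrays do not measure.

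**Figure D3:**
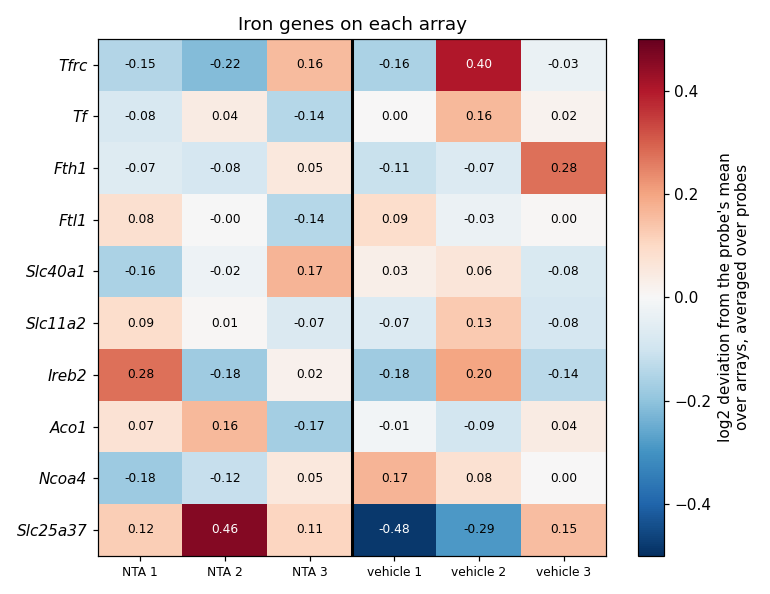
Each iron gene (rows) on each array (columns, NTA left of the line and vehicle right), as log2 deviation from the probe's mean over arrays, averaged over the gene's probes; Slc25a37 on vehicle 3 rests on 1 probe. The highest rat differs by gene, such as vehicle 2 for Tfrc at 0.40, vehicle 3 for Fth1 at 0.28 and NTA 2 for Slc25a37 at 0.46.

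Slc25a37, mitoferrin 1, which carries iron into mitochondria and is best known from developing red cells, had the largest differences of the set. Its probe A_64_P063518 was at −1.37, −1.23 and −1.68 in NTA rats 1 to 3 and at −2.16, −1.83 and −1.47 in vehicle rats 1 to 3. Vehicle rat 3 lay among the NTA rats, so the groups overlapped, and the log2 difference was 0.39 (SE 0.21, 95% interval −0.10 to 0.89; limma, Benjamini-Hochberg adjusted p = 0.733). Its second probe, A_44_P557731, was at −2.55, −2.02 and −2.27 in the NTA rats and at −2.96 and −2.91 in vehicle rats 1 and 2. The spot of vehicle rat 3 carried an outlier flag and was set to missing, so the fit used 2 vehicle values. On these the log2 difference was 0.66 (SE 0.18, 95% interval 0.20 to 1.11) or 1.58-fold. It was the 1 iron gene probe with an unadjusted p under 0.05 and did not pass after adjustment (limma, Benjamini-Hochberg adjusted p = 0.556, and 0.489 to 0.995 over the alternatives). The flagged spot had a processed signal of 285, against 89.8 to 128 on the NTA arrays and 61.8 to 66.5 on the other vehicle arrays, and with it kept the difference was −0.02. With normexp background correction the 2 probes gave 0.23 and 0.27, and neither had an unadjusted p under 0.05 in limma. The first probe gave 0.22 when vehicle replicate 1 was left out and 0.57 when vehicle replicate 3 was.

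Markers of red cells, in which Slc25a37 is abundant, were set beside it. Of 15 erythroid markers listed, 12 had a probe and 10 were tested, of which 8 had a log2 difference above 0, 4 an unadjusted p under 0.05 and 0 an adjusted p under 0.05 in limma, beside 7.38% and 0.0341% of all probes. Of these 10, 7 were well above background on every array, while Epb42 was on 4 arrays and Rhag and Klf1 on 5. The dim genes Epb42, at 0.54, and Rhag, at 0.06, are counted among the 8 above 0. The summed signal of the 10 was 861, 1121 and 711 times the 75th percentile in NTA rats 1 to 3, and 641, 579 and 631 times in vehicle rats 1 to 3. The globin probes of Hba-a1 and Hbb made up 99.3% to 99.5% of this sum, which adds signals of different probes and so describes mainly those 2. The other 8 genes summed to 5.57, 6.86 and 5.03 in NTA rats 1 to 3 and to 3.13, 3.71 and 3.85 in vehicle rats 1 to 3. NTA rat 2 was the highest rat for both sums and for both Slc25a37 probes, with the flagged spot of vehicle rat 3 left out. On A_64_P063518 vehicle rat 3 lay above NTA rat 3, at −1.47 against −1.68, while it lay below NTA rat 3 in both sums. In log2 difference the beta-globin gene Hbb was at 0.47 (SE 0.17) and Alas2, which starts heme synthesis in red cells, at 1.17 (SE 0.22), neither past the threshold (limma, Benjamini-Hochberg adjusted p = 0.624 and 0.409). Rhd had the smallest p of the list, at 1.00 (SE 0.14; limma, Benjamini-Hochberg adjusted p = 0.247), while Gypc was at −0.30 (SE 0.19). The spectrin gene Sptb was not above background on any array. The erythroid master regulator Klf1, well above background on only 5 arrays, was at −0.02 (SE 0.28). The part of red cell RNA in the Slc25a37 values was not tested. Sinusoidal endothelium markers, for comparison, had a probe for 7 of 10. These were Lyve1, Tie1, Tek, Emcn, Pecam1, Kdr and Cdh5, so Stab1, Stab2 and Clec4g were not measured. All 7 were above 0, as were 16872 of all 38168 probes, but Cdh5 was at 0.0069 and Tek at 0.03. In limma 4 of the 7 had an unadjusted p under 0.05, beside 7.38% of all probes. Their sums were 59.8 to 64.3 in NTA rats and 47.3 to 57.2 in vehicle rats, of which Kdr, whose own groups overlapped, made up 79.7% to 83.7%. Over the 5 arrays on which A_44_P557731 was measured, the named genes with the most similar pattern, of 11231 compared, were Jak3, Mest and Myo7a, with Pearson r of 0.998, 0.992 and 0.992 as a description of 5 points.

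**Figure D4:**
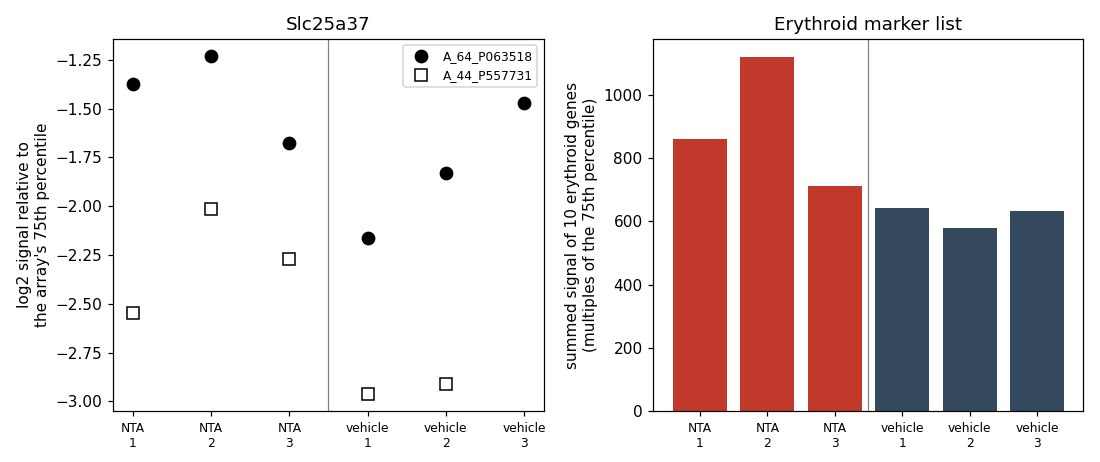
Left, log2 signal of the 2 Slc25a37 probes, with 0 at the array's 75th percentile; right, summed signal of 10 erythroid genes in multiples of the 75th percentile, both by array with NTA left of the line and vehicle right. The erythroid sums are 711 to 1121 in NTA rats and 579 to 641 in vehicle rats, and 99.3% to 99.5% of each is the 2 globins Hba-a1 and Hbb; the second Slc25a37 probe has no value for vehicle 3.

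Beyond the 10 genes, 5 lists of iron genes were examined, with 114 genes listed, 105 with a probe and 104 tested by 1 probe each, the brightest. Of the 104 genes 0 had an adjusted p under 0.05 in limma, 3 were higher and 4 lower at an unadjusted p under 0.05, or 6.73% against the 7.38% of all probes. The groups did not overlap for 20 genes, 10 higher and 10 lower, or 19.2% against 13.4%. The median log2 difference of the 104 was −0.0080, beside −0.02 for all probes.

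Other iron transport and storage genes had a median log2 difference of 0.03 over 25 genes, with 2 higher and 0 lower at an unadjusted p under 0.05. These were Lcn2, the siderophore-binding lipocalin of the acute phase, at −1.57, −1.41 and −0.48 in the NTA rats and −2.49, −1.71 and −2.39 in the vehicle rats, and the metalloreductase Steap2. Their log2 differences were 1.05 (SE 0.34) and 0.34 (SE 0.13), and the other Steap2 probe gave −0.57 (limma, Benjamini-Hochberg adjusted p = 0.581 and 0.660 for the first probes). The hepcidin control list had a median of −0.01 over 17 genes, with 1 higher and 1 lower. Atoh8, a transcription factor of the BMP response, was at 1.41, 1.48 and 1.63 in the NTA rats and at 1.86, 1.85 and 1.91 in the vehicle rats. Its log2 difference was −0.37 (SE 0.10) and its second probe gave −0.27, while Bmp6, the endothelial ligand that induces hepcidin, was at 0.71 (SE 0.21; limma, Benjamini-Hochberg adjusted p = 0.539 and 0.544). These 2 genes of 1 pathway therefore lay on opposite sides of 0.

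Heme and hemoglobin iron recovery had the highest list median, 0.13 over 14 genes with 12 above 0, and 0 genes at an unadjusted p under 0.05. Its 2 smallest p values belonged to Cd163, the macrophage receptor for hemoglobin bound to haptoglobin, at 0.48 (SE 0.23), and to the biliverdin reductase Blvrb at 0.26 (SE 0.12), each with limma Benjamini-Hochberg adjusted p = 0.708. Cd163 is also one of the macrophage markers above, and without vehicle replicate 3 the list median was 0.09 with 11 above 0. The 12 above 0 in the main fit include 2 genes of heme synthesis, Alas1 at 0.44 (SE 0.37) and Fech at 0.27 (SE 0.21). Iron-sulfur cluster assembly had a median of −0.05 over 28 genes, with 20 below 0 and 2 lower at an unadjusted p under 0.05. These were the cytosolic scaffold protein Nubp1 at −0.32 (SE 0.11) and the targeting factor Ciao1 at −0.25 (SE 0.10; limma, Benjamini-Hochberg adjusted p = 0.626 and 0.644). Ferritin turnover by autophagy had a median of −0.03 over 20 genes, with 1 lower at an unadjusted p under 0.05, the autophagosome protein Gabarap at −0.26 (SE 0.09), whose other probe gave −0.12. Next came Atg7, the enzyme that activates such proteins, at 0.28 (SE 0.14; limma, Benjamini-Hochberg adjusted p = 0.624 and 0.716).

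**Figure D5:**
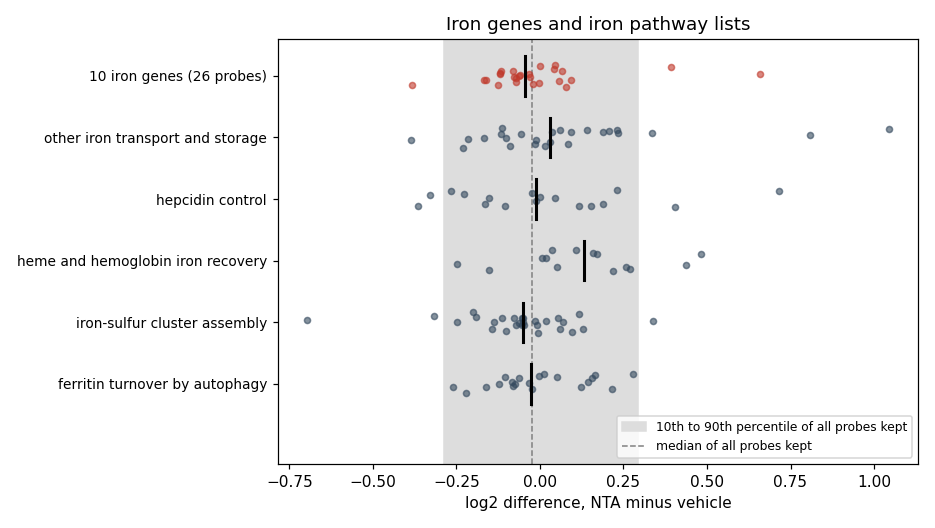
Log2 difference, NTA minus vehicle (x axis), of the 26 iron gene probes and of the genes of 5 iron lists (rows), with black bars at the medians, the grey band from the 10th to the 90th percentile of all probes tested and the dashed line at their median. The list medians run from −0.05 for iron-sulfur cluster assembly to 0.13 for heme and hemoglobin iron recovery.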

How the data were processed

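The submitters' processing notes name Agilent Feature Extraction 10.7 as the quantification tool. Its exact release was 10.7.1.1, used with array design 035170 and build rn4, per the file headers. The processed signal is a background-subtracted intensity, per the file headers. The authors' deposited series table holds a ratio, the signal over its array's 75th percentile, which 100.0% of its values matched within 0.0001 plus 0.2%. Its medians were 0.096, 0.100 and 0.0969 for NTA arrays and 0.0980, 0.0977 and 0.0987 for vehicle arrays, so its scale and direction are known.

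Values were log2 intensity minus log2 of the array's 75th percentile over non-control probes, with outlier-flagged spots missing. A probe was tested if well above background on all 3 arrays of 1 group. Accessions were matched to RefSeq (GRCr8), which named 27460 of 61657 probes. The test of NTA against vehicle was two-sided and per probe, from limma 3.58.1 under R 4.3.3 with 4 residual and 2.57 prior degrees of freedom, with Benjamini-Hochberg adjustment and a threshold of 0.05; the fit was tested on simulated data. An exact permutation test of 3 against 3 cannot go below p = 0.1. Each array was taken as 1 rat, per the labels' protocols, and precision is limited by how few arrays there are. The iron genes, the 5 pathway lists and the 4 marker lists (hepatocyte, erythroid, Kupffer cell and macrophage, sinusoidal endothelium) were chosen with earlier results of these data known. All probes of the 10 genes are named, and from each pathway list the 2 genes with the smallest p. The erythroid genes named were chosen after their values were seen. Alternatives changed normalization, background, filter, probe choice, variance model, batch and arrays; the lists without vehicle replicate 3 were added after seeing the data.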

Additional observations from a re-analysis of the deposited data

How the results depend on the processing

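Under 20 alternatives 0 iron gene probes passed limma's threshold, and the lowest Benjamini-Hochberg adjusted p was 0.431. Of 488 values of single iron gene probes under these alternatives 47 changed sign, in 17 of 26 probes. Slc25a37 A_44_P557731 changed sign only with its flagged spot kept, a setting chosen after seeing the data. None of the other probes with a changed sign had a difference over 0.12 in size in the main fit. Their values of changed sign reached 0.13, for Tfrc A_44_P214811 without vehicle replicate 2. The median of the iron gene probes was 3.2e-04 with quantile normalization, when the median of all probes was −0.0088, and −0.06 to −0.04 with 1 array left out. The total count of probes past the threshold ran from 6 to 11 with 1 array left out and was 0 with the replicate number as a block, when 2826 had an unadjusted p under 0.05. Deviations of same-numbered arrays correlated at 0.16, −0.0039 and −0.09, against −0.16 to 0.15 for arrays of different number. With 3 arrays a group these correlations cannot decide whether the numbers pair the rats. The replicate block changed no other call. The count for the pathway lists was 0 in each fit in which it was taken. With slide as a random block the total was 13 and the iron gene count 0. With scan day as a block, or on the shared day alone, the total was 9, of which 8 were among the 13. Vehicle replicate 3 was the only array of its scan day, so these fits give the same differences as leaving it out. The 20 alternatives, the 488 values and the 47 sign changes therefore count 1 comparison more than once. Matching by a gene name column was not run, because the scanner files used hold none. Normexp background correction started from the median signal and local background instead of the processed signal. It took the dim probes Slc25a37 A_44_P557731 to 0.27 against 0.66, and Tfrc A_44_P313767 to −0.23 against −0.38. Brighter probes moved too, Fth1 A_43_P13974 to 0.10 against −0.12 and Ncoa4 A_44_P1008050 to −0.32 against −0.17. Low signal is a limit for the dim probes, and its part in these shifts was not tested. With 3 rats a group the 95% intervals reach 0.494-fold to 1.85-fold. They reach 2.16-fold for Slc25a37 A_44_P557731, which was fitted on 2 vehicle values.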
